A study of Homo sapiens with 11 samples.

Results

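The BMP signalling and ID gene set held 10 genes: the helix-loop-helix genes ID1, ID2, ID3 and ID4, the ligands BMP2, BMP4 and BMP7, the secreted antagonist GREM1, the pseudoreceptor BAMBI and the inhibitory SMAD gene SMAD6. The genes were chosen by symbol, and all 10 were among the 60605 features of the deposited table. A gene was tested where 2 or more libraries reached a value of 10, which held for 8 of the 10 genes and for 18828 genes in all. BMP7 and GREM1 fell short of it.

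RNA was sequenced from ARPE-19, an established human cell line of retinal pigment epithelium (RPE) origin, so every group came from 1 line. In stable lines, an open reading frame (ORF) was expressed: GFP, which is fluorescent and served as the control (3 libraries), Oct4, Sox2 or Klf4 alone (2 libraries each), or Oct4, Sox2 and Klf4 together (OSK, 2 libraries). All were taken 4 days into ORF expression, and polyadenylated RNA was used. Library names of the Oct4, Sox2, Klf4 and OSK lines carry a tag, mC, that those of GFP lack. The names do not say what the tag means, and each comparison with GFP differs in it as well as in the factor. The labels name no vector, promoter, ORF species, clone number or sequencing batch, and the series was built to look at candidate genes of oxidative defence rather than at BMP signalling. The labels do not say whether the libraries of a group came from separate cultures, so p-values measure the spread between these libraries, which may be technical.

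Bone morphogenetic proteins (BMPs) are secreted dimers that bind type I and type II serine/threonine kinase receptors. The receptors phosphorylate SMAD1, SMAD5 and SMAD9, which enter the nucleus with SMAD4, and the ID genes are among the best known direct targets of these SMADs. ID proteins have a helix-loop-helix domain but no DNA-binding basic region. They pair with E proteins such as TCF3, TCF4 and TCF12 and keep them off DNA, and are associated with a proliferating, undifferentiated state in many tissues. The pathway limits itself: SMAD6 and BAMBI are both inhibitors and induced targets, while GREM1 traps ligand outside the cell. In the eye, BMP signals take part in specifying the RPE, and the adult RPE makes BMP2 and BMP4.

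The libraries held between 15053300 and 19791775 reads, as recovered from the deposited values (below, normalised counts are the deposited values: gene counts over a scaling factor for each library). POU5F1 (the Oct4 gene), SOX2 and KLF4 were checked first. Mean POU5F1 was 67074 normalised counts with Oct4 and 19281 with OSK, against 263 with GFP. Mean SOX2 was 29123 with Sox2 and 17673 with OSK, against 62.0 with GFP, and mean KLF4 was 23173 with Klf4 and 24336 with OSK, against 72.1 with GFP. The lines labelled for a factor held its highest levels. GFP replicate 1 and OSK replicate 1 stood apart, with a read in 42956 and 32493 features against 25853 to 26971 in the other 9 libraries.

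At a limma adjusted p under 0.05, all 8 tested genes of the set were lower in the Oct4 line than in GFP, where 37.3% of the genes tested were called in either direction and 17.2% lower. All 8 were also lower in the Sox2 line, against 41.6% of genes called and 19.9% lower. In the Klf4 line ID1 and ID4 rose and 4 genes fell, against 33.5% called, 17.6% higher and 16% lower. In OSK 6 genes fell and none rose, against 39.7% called and 20% lower. A larger share was called among the 12472 genes with a mean of at least 50, which include all 8 members. There, 6408 genes were called in Oct4, 6998 in Sox2, 5864 in Klf4 and 6825 in OSK. The members were also chosen with earlier results of these data known. The median log2 change of the 8 genes was -1.64 in Oct4, -1.80 in Sox2, -0.29 in Klf4 and -1.49 in OSK, whereas the median of all genes tested lay between -0.02 and -0.01. In these bulk libraries fewer cells of a kind and less RNA per cell cannot be told apart. The 4 comparisons share the 3 GFP libraries and are not independent of each other. With GFP replicate 1 and OSK replicate 1 both left out, 8, 8, 7 and 6 of the genes were called in the 4 lines.

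**Figure D1:**
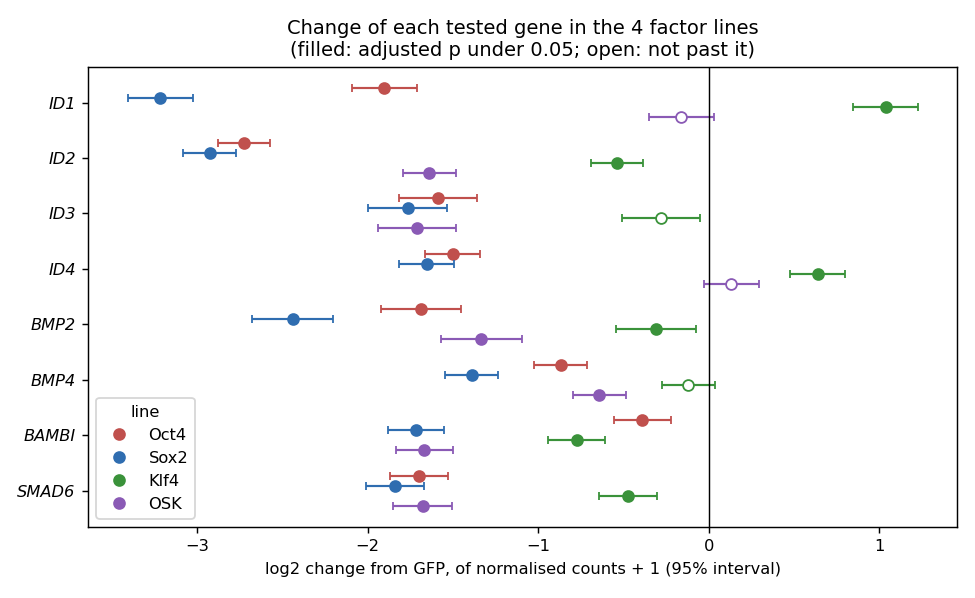
Log2 change from GFP (log2 of normalised counts + 1, x axis) of each tested gene in the Oct4, Sox2, Klf4 and OSK lines, with the 95% interval of the limma fit as bars; filled points passed an adjusted p of 0.05. All 8 genes lie below 0 in Oct4 and Sox2, and only ID1 and ID4 lie clearly above 0 in Klf4, at 1.04 and 0.64.

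Per kilobase of annotated exon, merged over all transcripts of a gene, the ID genes had the highest values of the set. The order rests on these lengths: 8563 bases for SMAD6 against 1233 (ID1) to 2344 (ID4) for the ID genes. Before division by length, SMAD6 had the highest mean in GFP, with 5902 normalised counts. In GFP, ID2 had 2069 normalised counts per kilobase of annotated exon, ID4 1955, ID1 1657 and ID3 1459. BAMBI followed with 881, BMP4 with 744, SMAD6 with 689 and BMP2 with 352. BMP7 (1.95) and GREM1 (0.41) were nearly silent.

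ID1 (GRCh38, chr20:31605283-31606515, plus strand) had 1846, 2163 and 2120.1 normalised counts in the 3 GFP libraries. It had 552 and 537 in Oct4, 197 and 241 in Sox2, 4127 and 4243 in Klf4, and 1792 and 1856 in OSK. The Klf4 libraries were the highest and the Sox2 libraries the lowest, and no library of those lines or of Oct4 overlapped with GFP, whereas OSK replicate 2 lay above GFP replicate 1. ID1 fell 3.75-fold in Oct4 (log2 change -1.90, SE 0.089; limma adjusted p = 1.8e-10) and 9.31-fold in Sox2 (-3.22; limma adjusted p = 4.4e-13). It rose 2.05-fold in Klf4 (1.04; limma adjusted p = 2.35e-07). In OSK the change was -0.16, with a 95% interval from -0.35 to 0.03 (limma adjusted p = 0.175). The order was thus Klf4, then GFP and OSK, which did not differ beyond their spread, then Oct4 and Sox2. The OSK value depended on GFP replicate 1: without it the change was -0.23 and passed the threshold (limma adjusted p = 0.034).

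ID4 (chr6:19837386-19840684, plus strand) followed the same order. It had 4581, 4428 and 4738 normalised counts in GFP, 1509.5 and 1731 in Oct4, 1376 and 1538 in Sox2, 7473 and 6821 in Klf4, and 5133 and 4913 in OSK. The Klf4 libraries were again above all others and the Oct4 and Sox2 libraries below all others. ID4 fell 2.83-fold in Oct4 (log2 change -1.50, SE 0.076; limma adjusted p = 3.9e-10) and 3.15-fold in Sox2 (-1.65; limma adjusted p = 9.5e-11), and rose 1.56-fold in Klf4 (0.64; limma adjusted p = 7.52e-06). In OSK both libraries lay above the 3 GFP libraries, but the change of 0.13 (95% interval -0.03 to 0.29) did not pass (limma adjusted p = 0.189). The difference between the neighbours Oct4 and Sox2, whose libraries overlapped, did not pass either (limma adjusted p = 0.187). Lower values in both Oct4 and Sox2 together with higher values in Klf4 were called for 344 genes, 1.83% of those tested, and ID1 and ID4 were the members among them.

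ID1 and ID4 are shown here with the sequence just before their annotated starts, since they were the members that rose with Klf4. KLF and SP zinc finger proteins are known to recognise GC boxes (GGGCGG) and CACCC boxes (CACCC). Sequences are from RefSeq (GRCh38.p14), plus strand, 5′ to 3′, at chr20:31605039-31605282 for ID1 and chr6:19837120-19837369 for ID4. Capitals mark each GC box or CACCC box found on either strand, so that CCGCCC is a GC box on the other strand.
ID1: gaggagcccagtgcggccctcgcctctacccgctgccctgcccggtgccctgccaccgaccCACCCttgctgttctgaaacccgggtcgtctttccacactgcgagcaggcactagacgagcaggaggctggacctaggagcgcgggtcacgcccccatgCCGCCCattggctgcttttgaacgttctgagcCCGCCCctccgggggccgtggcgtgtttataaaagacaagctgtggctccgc
ID4: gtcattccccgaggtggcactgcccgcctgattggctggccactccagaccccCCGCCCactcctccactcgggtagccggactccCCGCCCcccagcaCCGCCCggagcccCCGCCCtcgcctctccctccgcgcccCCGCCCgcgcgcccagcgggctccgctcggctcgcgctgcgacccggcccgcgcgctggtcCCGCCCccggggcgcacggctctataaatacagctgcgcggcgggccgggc
ID1 held 2 GC boxes and 1 CACCC box in these 244 bases, and ID4 held 6 GC boxes and no CACCC box in 250 bases, with no overlap between the motifs. Among 35116 windows of 250 bases before RefSeq starts, 42.6% held at least 1 GC box and 54.7% at least 1 CACCC box, so the letters are common. Members that fell in the Klf4 line held the boxes too: ID2 had 2 of each (chr2:8681806-8682055), BAMBI 4 GC boxes and no CACCC box, and SMAD6 3 GC boxes and 2 CACCC boxes. ID3, whose change in Klf4 did not pass, held neither (chr1:23559502-23559751, minus strand). BMP4, whose change in Klf4 did not pass either, held 2, 0 and 3 GC boxes and 0, 1 and 0 CACCC boxes in its successive windows. The windows precede RefSeq starts, and those of ID2 and ID3 lie wholly inside the GENCODE gene, as do 179 of the 250 bases for BAMBI. None of the 4 ID gene windows held the octamer ATGCAAAT (1.63% of windows) or the SOX core AACAAT (8.98%), searched on both strands. Among the windows of the other members, that of SMAD6 held 1 SOX core, and none held the octamer. These matches describe letters and do not show binding.

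ID2 (chr2:8678845-8684453, plus strand) had the largest fall in the Oct4 line among the 8 genes. It had 4871, 4509.9 and 4306 normalised counts in GFP, 703 and 673 in Oct4, 605 and 593 in Sox2, 3198 and 3083 in Klf4, and 1384 and 1544 in OSK. GFP was above every other library, Klf4 came next, then OSK, and the Oct4 and Sox2 libraries were lowest. ID2 fell 6.63-fold in Oct4 (log2 change -2.73, SE 0.073; limma adjusted p = 7.14e-13), ranking 50 from the bottom of 18828 genes by log2 change, and 7.62-fold in Sox2 (-2.93; limma adjusted p = 2.16e-13). It fell 1.45-fold in Klf4 (-0.54; limma adjusted p = 2.78e-05) and 3.12-fold in OSK (-1.64; limma adjusted p = 1.02e-10). Only Oct4 and Sox2 were neighbours that did not differ beyond their spread (-0.20; limma adjusted p = 0.0659), and that difference passed with GFP replicate 1 and OSK replicate 1 both left out (limma adjusted p = 0.0272) and with a filter on a mean of at least 50 (limma adjusted p = 0.049). ID2 overlaps an antisense gene, ID2-AS1, with 49.5 to 127 normalised counts over the libraries. Whether the counting used strand is not given in the sources used here, so reads of the pair cannot be told apart.

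ID3 (chr1:23557918-23559794, minus strand) split the lines into a high and a low group. It had 2307, 2983 and 2578 normalised counts in GFP and 2219.6 and 2085 in Klf4. It had 787 and 958 in Oct4, 705 and 833 in Sox2, and 811 and 781 in OSK. The libraries of Oct4, Sox2 and OSK overlapped with each other and lay far below those of GFP and Klf4. ID3 fell 3.01-fold in Oct4 (log2 change -1.59, SE 0.11; limma adjusted p = 1.15e-08), 3.41-fold in Sox2 (-1.77; limma adjusted p = 2.33e-09) and 3.30-fold in OSK (-1.71; limma adjusted p = 4.33e-09). Klf4 libraries were below GFP without overlap, but the change of -0.28 (95% interval -0.51 to -0.05) missed the threshold (limma adjusted p = 0.0598). Leaving out GFP replicate 1, the lowest of the 3 controls, gave -0.37 and passed (limma adjusted p = 0.00778).

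**Figure D2:**
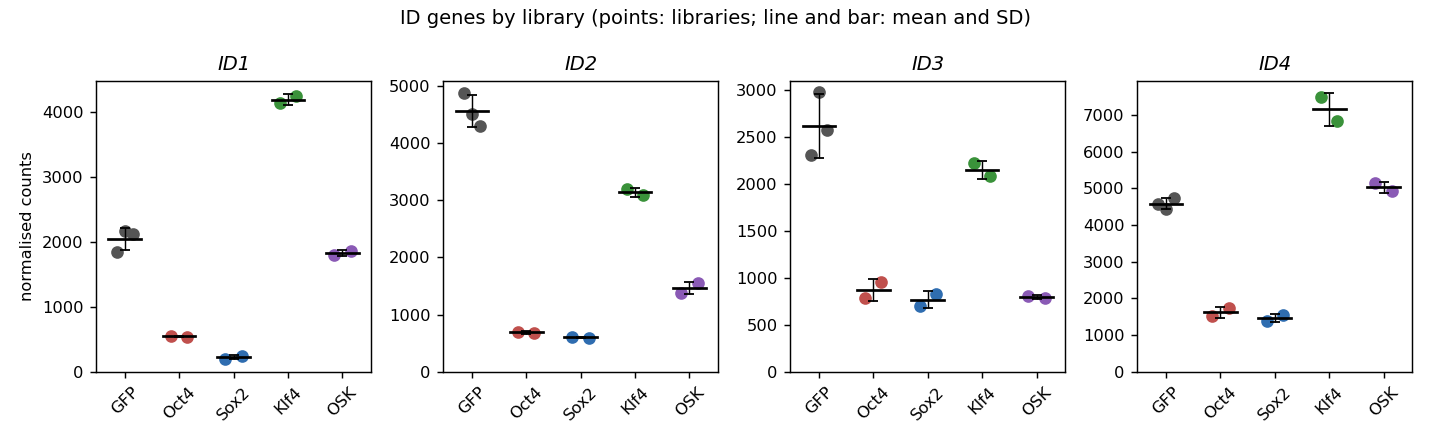
Normalised counts (y axis, from 0) of ID1, ID2, ID3 and ID4 in each library, by line; points are libraries (3 for GFP, 2 for each other line), and the line and bar give the mean and SD. ID1 and ID4 are highest in Klf4 and near GFP in OSK, whereas ID2 and ID3 in OSK lie far below GFP, at 32.1% and 30.3% of it.

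In OSK, ID1 and ID4 lay near GFP and ID2 and ID3 well below it. As a share of the GFP mean, OSK held 89.3% of ID1 and 109.6% of ID4 but 32.1% of ID2 and 30.3% of ID3. Compared directly with Oct4, OSK was higher for ID1 (log2 difference 1.74; limma adjusted p = 1.23e-09), ID2 (1.09; limma adjusted p = 2.3e-08) and ID4 (1.63; limma adjusted p = 3.94e-10). ID3 did not pass (-0.13, 95% interval -0.38 to 0.13; limma adjusted p = 0.438). Compared with Sox2, OSK was higher by 3.06 for ID1, 1.29 for ID2 and 1.79 for ID4 on the log2 scale, and ID3 again did not pass (0.05, 95% interval -0.20 to 0.31; limma adjusted p = 0.754). Compared with Klf4, all 4 were lower in OSK, by -1.20 for ID1, -1.10 for ID2, -1.43 for ID3 and -0.51 for ID4.

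The make-up of the summed ID gene counts per kilobase shifted with these changes. Summed per kilobase, the 4 ID genes had 6944 to 7349 normalised counts in GFP, 1848 to 2012 in Oct4, 1413 to 1584 in Sox2, 8910 to 9221 in Klf4 and 4722 to 4736 in OSK, with no overlap between any of the lines. ID1 made up 11.3% and 12.4% of this sum in the Sox2 libraries and 36.3% and 38.6% in the Klf4 libraries, against 21.6% to 24.1% in GFP. ID2 made up 27.4% to 31.8% in GFP and less than that in every other library, from 13.3% in OSK replicate 1 to 19.4% in Sox2 replicate 1. ID4 was the largest part of the sum in each Oct4, Sox2 and OSK library, with up to 46.4% in OSK replicate 1.

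The E proteins are the partners that ID proteins bind. TCF3 fell in Oct4 (log2 change -0.46; limma adjusted p = 0.000928), Klf4 (-0.40) and OSK (-0.35) and had 0.06 in Sox2 (limma adjusted p = 0.635). TCF12 had 1162 to 1352 normalised counts in GFP and 4159 and 3876 in Sox2, a 3.12-fold rise (1.65, SE 0.082; limma adjusted p = 2.46e-10), and did not pass in the other lines. TCF4 rose in Sox2 (1.00), fell in Klf4 (-1.40) and OSK (-0.73), and had -0.26 in Oct4 (limma adjusted p = 0.25). Summed per kilobase, the 3 E protein genes had 358 to 417 normalised counts in GFP and 682 to 716 in Sox2, and 289 to 340 over the Oct4, Klf4 and OSK libraries. The ratio of the ID sum to the E protein sum was 17.4 to 19.4 in GFP, 5.48 to 6.95 in Oct4, 1.97 to 2.32 in Sox2, 26.8 to 31.1 in Klf4 and 13.9 to 14.5 in OSK. These are ratios of counts per kilobase of exon, so their size rests on the lengths used. For instance, TCF4 had a mean of 124 normalised counts in GFP but 4.46 per kilobase. The ratios are not those of transcript molecules or of proteins.

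**Figure D3:**
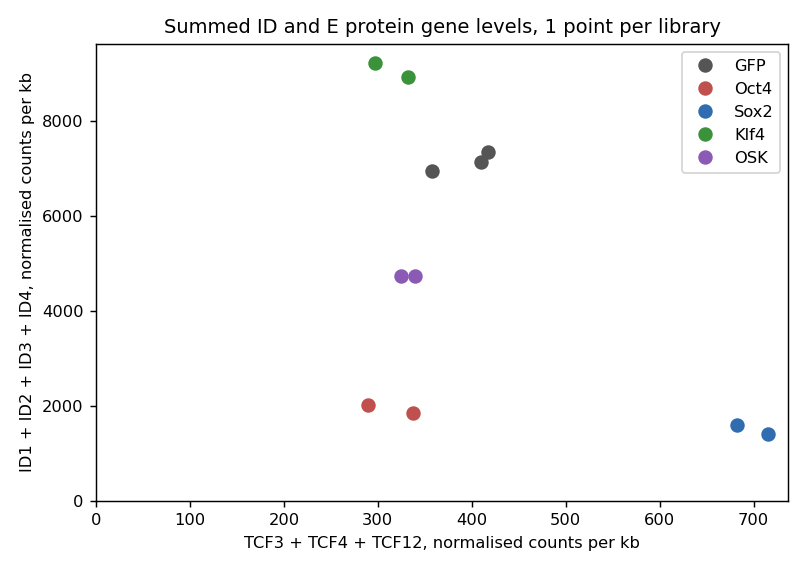
Sum of ID1 to ID4 (y axis) against the sum of TCF3, TCF4 and TCF12 (x axis), both in normalised counts per kilobase of exon and both from 0, with 1 point per library. Sox2 libraries sit alone at the lower right, with the lowest ID sums (1413 and 1584) and the highest E protein sums (682 and 716).

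Of the ligands, BMP2 (chr20:6767664-6780280, plus strand) had 1175, 1353 and 1278 normalised counts in GFP, 439 and 351 in Oct4, 219 and 247 in Sox2, 1024 and 1020.4 in Klf4, and 453 and 555 in OSK. Every library of the factor lines was below GFP, and the Sox2 libraries were lowest. BMP2 fell 3.21-fold in Oct4 (log2 change -1.69, SE 0.11; limma adjusted p = 8.09e-09), 5.44-fold in Sox2 (-2.44; limma adjusted p = 8.47e-11) and 2.52-fold in OSK (-1.33; limma adjusted p = 9.9e-08). The fall in Klf4 was slight (-0.31; limma adjusted p = 0.0429) and was lost in 8 of the 16 other settings, among them TMM scaling (limma adjusted p = 0.0515), no filter (0.133) and leaving out GFP replicate 2 or 3 or either Klf4 library (0.0939 to 0.151). OSK was above Oct4 by 0.35 (limma adjusted p = 0.03), which was lost without Oct4 replicate 2 (0.19; limma adjusted p = 0.319) or OSK replicate 2 (0.21; limma adjusted p = 0.302).

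BMP4 (chr14:53949736-53958761, minus strand) changed less. It had 2404, 2145 and 2327 normalised counts in GFP, 1222 and 1288 in Oct4, 853 and 895 in Sox2, 2221 and 1997 in Klf4, and 1453 and 1484 in OSK. The Klf4 libraries overlapped with GFP, and all other factor libraries were below it. BMP4 fell 1.83-fold in Oct4 (log2 change -0.87, SE 0.073; limma adjusted p = 1.24e-07), 2.62-fold in Sox2 (-1.39; limma adjusted p = 4.06e-10) and 1.56-fold in OSK (-0.64; limma adjusted p = 3.28e-06). In Klf4 it had -0.12, with a 95% interval from -0.28 to 0.03 (limma adjusted p = 0.231). The step from Oct4 up to OSK (0.23; limma adjusted p = 0.0325) was lost when any of the 4 libraries of those lines was left out, with limma adjusted p from 0.0556 to 0.169. For both ligands the order was GFP, Klf4, OSK, Oct4, Sox2.

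BMP7 (chr20:57168748-57266629, minus strand) and GREM1 (chr15:32717974-32745107, plus strand) were at the limit of detection. BMP7 had 28 reads and GREM1 14 in GFP replicate 1, one of the libraries with reads in many more features, and at most 6 reads in any other library. In OSK replicate 2 both had 0 reads, which allows up to 3.30 normalised counts (counting error only). No fold change is given for either.

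BAMBI and SMAD6, the inhibitors in the set, both fell in each of the 4 lines but in different measure. BAMBI (chr10:28677342-28682939, plus strand), a receptor-like membrane protein without a kinase domain, had 1967, 2022 and 2123 normalised counts in GFP, 1657 and 1458 in Oct4, 614 and 625 in Sox2, 1132 and 1251 in Klf4, and 617 and 664 in OSK. Oct4 was closest to GFP, Klf4 was between, and the Sox2 and OSK libraries were lowest and overlapped. BAMBI fell 1.31-fold in Oct4 (log2 change -0.39, SE 0.078; limma adjusted p = 0.000915), 3.29-fold in Sox2 (-1.72; limma adjusted p = 8.13e-11), 1.71-fold in Klf4 (-0.77; limma adjusted p = 1.27e-06) and 3.18-fold in OSK (-1.67; limma adjusted p = 1.91e-10). It was the member for which Klf4 was below Oct4 (log2 difference -0.38; limma adjusted p = 0.00171) and OSK was below Oct4 (-1.28; limma adjusted p = 8.52e-09).

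SMAD6 (chr15:66702228-66782848, plus strand), which blocks receptor-activated SMADs, had 5561, 6028 and 6115 normalised counts in GFP, 1975 and 1668 in Oct4, 1571 and 1721 in Sox2, 4152 and 4350.0 in Klf4, and 1766 and 1920.4 in OSK. GFP was highest, Klf4 second, and the other 3 lines lay together at 27.9% to 31.2% of the GFP mean. SMAD6 fell 3.24-fold in Oct4 (log2 change -1.70, SE 0.080; limma adjusted p = 1.91e-10), 3.59-fold in Sox2 (-1.84; limma adjusted p = 5.06e-11), 1.39-fold in Klf4 (-0.47; limma adjusted p = 0.000257) and 3.20-fold in OSK (-1.68; limma adjusted p = 2.47e-10). Oct4, Sox2 and OSK did not differ beyond their spread, with log2 differences of 0.02 between OSK and Oct4, 0.16 between OSK and Sox2 and -0.14 between Sox2 and Oct4 (limma adjusted p = 0.877, 0.159 and 0.245). SMAD6 is shown with the 30 bases before its RefSeq start (GRCh38.p14, chr15:66702206-66702235, plus strand), where capitals mark GTCTAGAC, a pair of SMAD boxes. The GENCODE start of SMAD6 falls within the marked site, so the last 8 of these bases lie inside the GENCODE gene.
SMAD6: ccgcggagccgccaaagtGTCTAGACtggc
GTCTAGAC reads the same on both strands and was found in 64 of the 35116 windows of 250 bases (0.182%). SMAD6 was the member whose window held it, and BMP2 and BMP7 were not in the promoter table. The other SMAD motif searched, the GC-rich element GGCGCC, occurred 3 times in the BAMBI window, 2 times in 1 of the GREM1 windows and 1 time in 1 of the BMP4 windows. It was not in the windows of the 4 ID genes or SMAD6, and 16.4% of all windows held at least 1. Sites outside these 250 bases were not searched, so its absence from a window does not mean that a gene lacks it. The BMP4 windows also lie inside the GENCODE gene.

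**Figure D4:**
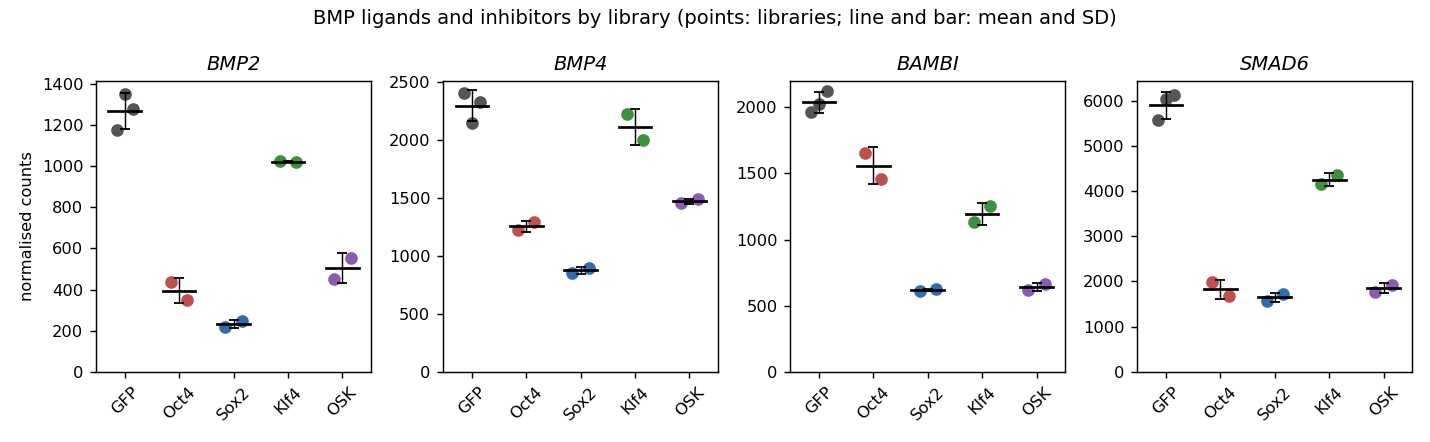
Normalised counts (y axis, from 0) of BMP2, BMP4, BAMBI and SMAD6 in each library, by line; points are libraries (3 for GFP, 2 for each other line), and the line and bar give the mean and SD. The Sox2 libraries are lowest for BMP2 (219 and 247) and BMP4 (853 and 895), and BAMBI is the gene that stays near GFP in Oct4 (1657 and 1458).

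Between the factor lines, Sox2 went below Oct4 for 4 of the 8 genes and above it for none, where 33.4% of genes were called and 18% lower: ID1 (log2 difference -1.31; limma adjusted p = 3.67e-08), BMP2 (-0.75), BMP4 (-0.52) and BAMBI (-1.33). Klf4 was above Sox2 for all 8, against 40.8% called and 20.7% higher, with the widest gap for ID1 (4.25, or 19.1-fold; limma adjusted p = 5.33e-14). Klf4 was above Oct4 for 7 and below it for BAMBI, against 41.7% called, 20% higher and 21.8% lower. OSK was below Klf4 for all 8, against 21.5% called and 11.9% lower. OSK was above Oct4 for 5 (ID1, ID2, ID4, BMP2 and BMP4) and below it for BAMBI, against 40.3% called, 18.4% higher and 21.9% lower. It was above Sox2 for these 5 too, against 40.5% called and 20% higher, with ID3, BAMBI and SMAD6 not passing. Lower values in both Oct4 and Sox2 than in GFP were called for all 8 members and for 10.3% of the genes tested. Lower values in all 4 lines were called for ID2, BMP2, BAMBI and SMAD6 and for 3.47% of the genes tested. Lower values in Oct4, Sox2 and OSK were called for 6 members and 5.96% of genes. A fall of at least 1 on the log2 scale in both Oct4 and Sox2 was called for 6 members (the 4 ID genes, BMP2 and SMAD6) and 2.4% of genes.

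Likeness of pattern was measured as the largest difference between the log2 changes of a pair of genes over the 4 lines. Within the set the closest pair was ID3 and SMAD6, which differed by at most 0.19. The ID genes were far apart from each other, from 1.16 for ID2 and ID3 to 1.84 for ID3 and ID4. Among 12472 genes with a mean of at least 50, ID3 was closest to SMAD6, then COL9A2, a collagen chain (0.35), and PODXL, a sialomucin of the apical membrane (0.39), and 14 genes lay within 0.5. ID1 had 2 genes within 0.5: SLC45A2, a melanosome transporter (0.43), and SH3TC2 (0.46), with FGF18, a growth factor, next at 0.52. No gene lay within 0.5 of ID2, and its nearest were CEP295NL (0.50), TPRN (0.52) and ENSG00000259583 (0.62). ID4 was closest to LNC-LBCS, a long non-coding RNA (0.23), then PIM1, a kinase (0.33), and TSKU, a secreted protein also on the pathway list (0.37), with 11 genes within 0.5. LNC-LBCS lies 32.6 kb before the start of ID4 on chromosome 6 in RefSeq, with 1 gene, LOC105374963, between them. Its log2 changes were -1.59 in Oct4, -1.43 in Sox2, 0.70 in Klf4 and 0.36 in OSK.

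The rest of the pathway was read from a list of 81 genes by role, of which 59 were tested. It changed in both directions: 20 rose and 18 fell in Oct4, 21 and 19 in Sox2, 14 and 16 in Klf4, and 16 and 18 in OSK. Its calls made up 64.4%, 67.8%, 50.8% and 57.6% of the genes tested from the list, beside 37.3%, 41.6%, 33.5% and 39.7% of all genes tested. The list's median log2 change was -0.02, 0.07, -0.07 and -0.06, beside -1.64, -1.80, -0.29 and -1.49 for the 8 members.

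The signal carriers and receptors did not fall together. SMAD9 fell in all 4 lines, from 768, 963 and 984 normalised counts in GFP to 138 and 193 in Sox2 (log2 change -2.46, SE 0.15; limma adjusted p = 2.2e-09), with -0.71 in Oct4, -1.11 in Klf4 and -1.78 in OSK. SMAD5 rose in Sox2 (0.55) and OSK (0.41). SMAD1 fell in Oct4 (-0.45) and rose in OSK (0.32), and SMAD4 rose in Oct4 (0.32) and OSK (0.26). Of 10 tested receptors and co-receptors, 5 rose and 1 fell in Oct4, 4 and 2 in Sox2, 0 and 2 in Klf4, and 1 and 1 in OSK. The shares called were 60%, 60%, 20% and 20%, beside 37.3%, 41.6%, 33.5% and 39.7% of all genes, so Klf4 and OSK lay below the share of all genes. The type I receptor gene ACVR1 rose 2.05-fold in Oct4 (1.03, SE 0.069; limma adjusted p = 9.37e-09) and by 0.60 in OSK, and fell in Sox2 (-0.26) and Klf4 (-0.41). BMPR1A, also type I, had a change of 0.30 in Oct4 and -0.21 in Klf4, both past the threshold. BMPR2, the type II receptor, rose in Oct4 (0.47) and Sox2 (0.73), and BMPR1B rose in Oct4 (2.44) to a mean of 77.3 normalised counts. The co-receptor RGMB rose in Sox2 (1.76).

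Ligands outside the set were mostly low, with 5 of 11 tested. GDF6, a ligand with a role in eye development, rose 6.67-fold in Oct4 (log2 change 2.69, SE 0.38; limma adjusted p = 3.43e-05) and 9.98-fold in Sox2 (3.31; limma adjusted p = 2.92e-06) from a mean of 16.3 normalised counts, while BMP2 and BMP4 fell in both lines. In OSK it fell, as they did, to a mean of 6 (-1.24; limma adjusted p = 0.0159), and in Klf4 it had -0.70 (limma adjusted p = 0.177). BMP6 fell in Sox2 (-0.86), Klf4 (-0.86) and OSK (-1.27). BMP8B fell in Sox2 (-0.55) and rose in Klf4 (0.50) and OSK (0.32), with values that are uncertain since BMP8A is a near-identical copy.

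Inhibitors and modulators were likewise mixed. SMAD7, the other inhibitory SMAD, fell in all 4 lines like SMAD6, most in OSK (log2 change -1.97, SE 0.11; limma adjusted p = 1.82e-09), with -0.64 in Oct4, -0.80 in Sox2 and -0.92 in Klf4. TOB1, which binds SMADs and restrains BMP signals, fell in Oct4 (-0.77), Sox2 (-1.78) and OSK (-0.26) and rose in Klf4 (0.89). SMURF1 and SMURF2, ubiquitin ligases that target SMADs and receptors, rose in Oct4 (0.37 and 0.86) and Sox2 (1.15 and 0.66) and fell in OSK (-0.21 and -0.46). BMPER, a secreted BMP-binding protein, had 1054 to 1070 normalised counts in GFP, 121 and 124 in Sox2 and 1934 and 1969.9 in Klf4. It fell 8.67-fold in Sox2 (-3.11, SE 0.086; limma adjusted p = 4.4e-13) and in Oct4 (-1.15), rose in Klf4 (0.88) and had 0.13 in OSK (limma adjusted p = 0.264). KCP, a secreted enhancer of BMP signals, fell in Sox2 (-2.99), Klf4 (-1.09) and OSK (-1.55).

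FST, which binds activins and some BMPs, rose 8.93-fold in OSK (log2 change 3.15, SE 0.27; limma adjusted p = 1.68e-07) and 6.52-fold in Sox2 (2.68; limma adjusted p = 9.09e-07), from a mean of 31.1 normalised counts. CHRD, a secreted BMP antagonist, rose in all 4 lines, most in Klf4 with 104 and 130.3 normalised counts (3.59, SE 0.61; limma adjusted p = 0.00024). Its GFP libraries had 32.8, 6.07 and 2.92, so the size of that change depends on GFP replicate 1. The Sox2 libraries, with 34.8 and 32.5, overlapped with GFP, and Oct4 had 34.8 and 45.8.

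**Figure D5:**
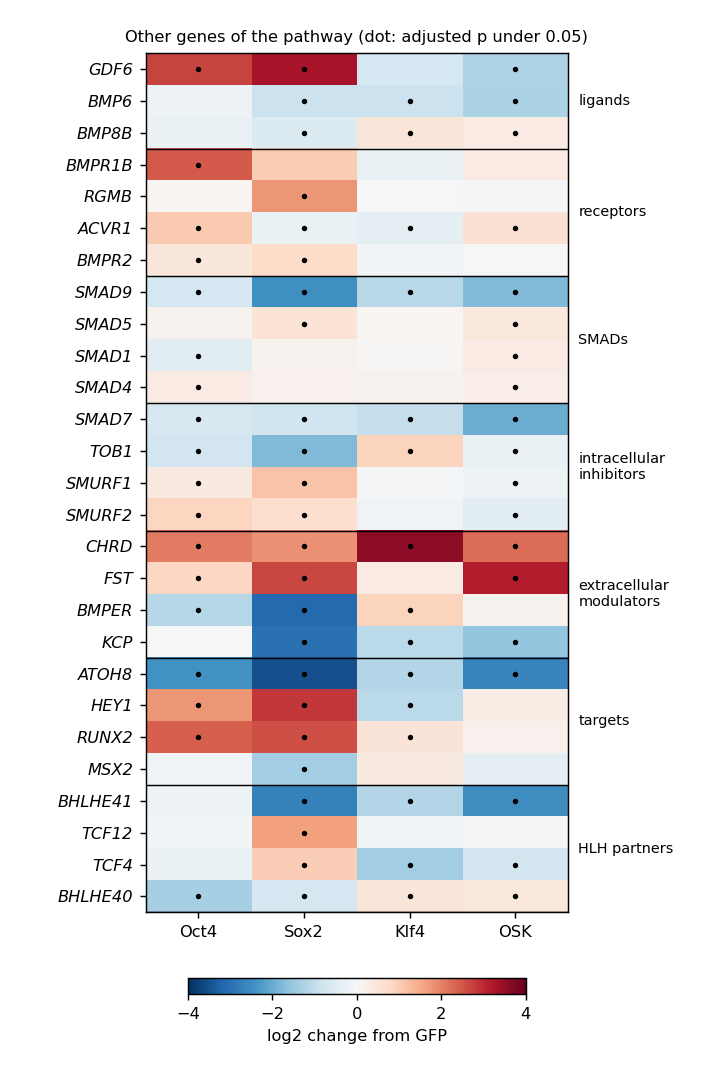
Log2 change from GFP (colour, from -4 to 4) of the named genes outside the set, in rows by role, in the Oct4, Sox2, Klf4 and OSK lines (columns); a dot marks a limma adjusted p under 0.05. Blue rows such as SMAD9 and ATOH8 stand beside red ones such as HEY1 and RUNX2 in Sox2, at -2.46 and -3.50 against 2.81 and 2.58.

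Other known targets of BMP and SMAD1/5 moved in both directions. Of 9 tested, 3 rose and 2 fell in Oct4, 2 and 3 in Sox2, 3 and 3 in Klf4, and 1 and 2 in OSK. These are 55.6%, 55.6%, 66.7% and 33.3% of the list, beside 37.3%, 41.6%, 33.5% and 39.7% of all genes. ATOH8, a basic helix-loop-helix factor induced by BMP, fell in all 4 lines, from 2855, 3109.8 and 2723 normalised counts in GFP to 277 and 233 in Sox2. It fell 11.4-fold there (log2 change -3.50, SE 0.11; limma adjusted p = 1.46e-12), by -2.42 in Oct4, -1.18 in Klf4 and -2.64 in OSK. HEY1, a repressor that also answers to Notch, rose in Oct4 (1.75) and Sox2 (2.81; limma adjusted p = 2.48e-07) and fell in Klf4 (-1.08). RUNX2, a factor of bone formation, rose in Oct4 (2.40), Sox2 (2.58; limma adjusted p = 5.94e-09) and Klf4 (0.53). MSX2 fell in Sox2 (-1.40; limma adjusted p = 9.09e-06). Among other helix-loop-helix genes, BHLHE41 fell in Sox2 (-2.71), Klf4 (-1.19) and OSK (-2.49). BHLHE40 fell in Oct4 (-1.33) and Sox2 (-0.71) and rose in Klf4 (0.47) and OSK (0.42).

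Marker genes also changed between the lines, some lists upward where the set fell, and their part in its changes was not tested. Of 14 RPE markers 11 were tested, of which 7 fell and 1 rose in Oct4, 6 and 2 in Sox2, 4 and 1 in Klf4, and 8 and 1 in OSK. The shares called were 72.7%, 72.7%, 45.5% and 81.8%, beside 37.3%, 41.6%, 33.5% and 39.7% of all genes, the background for the other marker lists too. Their sum was 12865 to 16564 normalised counts in GFP, 4429 to 5033 in Oct4, 2581 to 2632 in Sox2, 8187 to 9897 in Klf4 and 5716 to 6080.3 in OSK. The visual cycle gene RPE65 had at most 4.63 normalised counts in any library, DCT at most 9.93 and TTR at most 4.97. In GFP, BEST1 (87.4 to 136), MERTK (58.7 to 64.55), LRAT (49.65 to 65.1), RLBP1 (16.2 to 24.3) and MLANA (5.06 to 19.4) were low too. The remaining markers were higher in GFP: TYR (350 to 578), SERPINF1 (850 to 1243), TYRP1 (2168 to 2813) and PMEL (4094 to 6067), which makes a melanosome protein. The transcription factors MITF (3263 to 3602.5) and OTX2 (1804 to 1952) were among these. All 10 proliferation markers rose in Klf4 and 9 in OSK, 7 in Sox2 and 3 in Oct4, where 2 fell, or 50%, 70%, 100% and 90% called in Oct4, Sox2, Klf4 and OSK. Their sum was 2405 to 2725 in GFP, 2488 to 2581 in Oct4, 4498 to 4583 in Sox2, 8692 to 10096 in Klf4 and 8319 to 8710.2 in OSK. Of 9 tested fibroblast and mesenchymal markers, 4 rose and 1 fell in Oct4, 5 and 2 in Sox2, 0 and 5 in both Klf4 and OSK, or 55.6%, 77.8%, 55.6% and 55.6% called. Their sum was 29803 to 41101 in GFP, 56200 to 57441 in Oct4, 47945 to 51679 in Sox2, 21906 to 24576 in Klf4 and 22332 to 23164 in OSK. Within the list, FBN1 had 13489 to 32441 over all libraries, PDGFRB 4529 to 11534, TAGLN 594 to 12300 and COL1A1 557 to 8369, whereas COL3A1 had at most 12.9 and PDGFRA at most 21.9.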

How the data were processed

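Gene expression was compared in 11 polyA RNA libraries of ARPE-19 lines. The authors deposited a single table whose values are a signal, normalised counts per gene: from the values, gene counts divided by a factor per library and rounded. Per the submitters' processing notes, STAR 2.7.1a and featureCounts 1.6.2 were used and the builds GRCh38, hg38, GRCm38 and mm10 are named, without roles. The normalisation step and the use of strand are not given in the sources used here. Every value up to 200 was a whole multiple of what 1 read is worth in its library (100%, tolerance 0.0061), as were at least 99.978% of all values. For GFP replicates 1 and 2 that value lay near 1 (0.993 and 1.01), and it rests on 23442 and 13583 values that differ from whole numbers.

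The test was limma 3.58.1 (R 4.3.3; eBayes with trend) on log2(value + 1), a scale that understates changes of low genes. A single model with a mean for each group was fitted to all 11 libraries (6 residual and 9.21 prior degrees of freedom). The Benjamini-Hochberg adjustment ran over the 18828 genes that reached a value of 10 in 2 or more libraries, and the threshold was 0.05. Lines were compared with GFP and with each other (10 comparisons). The procedure was tested on simulated data in which far fewer genes changed than were called here, so that test does not cover changes this broad. Fold changes in the text are ratios of mean normalised counts.

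The members and lists were chosen with earlier results of these data known. Besides the members and factor genes, the text names up to 4 genes per pathway role, those with the largest change from GFP in any line past the threshold, with a mean of at least 50 in a compared group and no overlap between libraries. It also names E proteins, receptors and SMADs, and the 3 nearest genes to each ID gene. RPE, proliferation, fibroblast, keratin, endothelial, pluripotent and photoreceptor markers were listed too, and the last 4 lists are given among the closing observations.

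Gene positions and exon lengths came from GENCODE 29 (GRCh38) and promoter sequences from RefSeq (GRCh38.p14), both matched by symbol; 8 of the 10 members had a promoter entry. Of the 50-base sequences of each member's transcripts at most 1.3% occurred in another gene. Alternatives were edgeR 4.0.16 and DESeq2 1.42.0 on recovered reads, TMM scaling, pseudocounts of 0.5 and 5, other filters, only the compared groups, a block for the replicate number, and libraries left out. TMM factors over all features were added after seeing the data.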

Additional observations from a re-analysis of the deposited data

How the results depend on the processing

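Over 1232 results of the 8 tested genes under all alternatives, 1198 kept their direction and their side of the threshold, 22 lost and 7 gained a call, and 5 changed sign. The 5 were all differences that had not passed. With each library left out in turn, ID3 ran from -0.27 to 0.015 in OSK against Oct4 (highest without Oct4 replicate 2) and from -0.066 to 0.18 in OSK against Sox2 (lowest without Sox2 replicate 1). SMAD6 in OSK against Oct4 ran from -0.10 without Oct4 replicate 2 to 0.14, with -0.039 without OSK replicate 2. BAMBI in OSK against Sox2 ran from -0.0059 without OSK replicate 2 to 0.10. The cause was not tested.

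The number of members called was 8 in Oct4 and 8 in Sox2 against GFP under every alternative, between 5 and 7 in Klf4 and between 6 and 7 in OSK. With DESeq2 and with a mean of at least 50, ID3 also passed in Klf4 (adjusted p = 0.0393 and 0.0471). Of all genes, 4049 were called in OSK against Klf4, and 2539 to 3222 when a library of either line was left out: 2580 without Klf4 replicate 1 and 2539 without OSK replicate 2, where an arm of 1 library takes its spread from the other groups. In the 4 comparisons with GFP, edgeR on recovered reads called 6774, 7834, 6048 and 7232 genes.

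Replicate numbers did not pair the libraries: deviations of replicate 1 correlated between -0.07 and 0.04 across groups, except 0.41 between GFP and OSK, the groups of the libraries that stand apart. With the replicate block 6072, 7051, 5322 and 6469 genes were called against GFP and 3744 in OSK against Klf4. Members called under the block were 8, 8, 5 and 6 against GFP. BMP2 in Klf4 (limma adjusted p = 0.099) and BMP4 in OSK against Oct4 (0.0534) lost their calls. No scaling moved the median change of all genes by 0.1. Groups of 2 limit precision, and BMP7 and GREM1 were too low to compare at this depth.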

Other observations

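The other marker lists were also read as sums of normalised counts. The epithelial keratins of ARPE-19 (KRT7, KRT8, KRT18 and KRT19) had 39234 to 47379 in GFP, 23390 to 24423 in Oct4, 28438 to 29313 in Sox2, 31939 to 33894 in Klf4 and 17109 to 17619 in OSK. Of these 4 genes, 3 fell in Oct4, 1 in Sox2, 2 in Klf4 and 3 in OSK, and none rose, which is 75%, 25%, 50% and 75% of the list beside 37.3%, 41.6%, 33.5% and 39.7% of all genes. Endothelial markers had 1095 to 1377 in GFP and 542 to 896 in the other lines, most of it KDR, and CDH5 had at most 29.8 in any library. Pluripotency markers other than the delivered factors had 424 to 595 in GFP and 194 to 406 in the other lines, and NANOG had at most 16.9. Of 8 such markers 5 were tested, and none rose in any comparison with GFP. In Oct4, Sox2, Klf4 and OSK, 0, 4, 0 and 2 fell. The shares called were 0%, 80%, 0% and 40%, beside 37.3%, 41.6%, 33.5% and 39.7% of all genes. Photoreceptor and neural markers had 345 to 447 in GFP and 79.7 to 156 in the other lines, most of it TUBB3 in GFP, with 307 to 334.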
